A study of Rattus norvegicus with 29 samples.

Results

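Pioglitazone (PIO) was compared with control diet in the hippocampus of aged rats. These were 13 of the 29 rats of the study, 6 in the aged PIO group and 7 in the aged control group. All 29 animals were male Fischer 344 rats. The aged groups were 21 to 22 months old, after 4 to 5 months on their diet from an age of 17 months. The remaining rats, 8 young control and 8 young PIO, were 7 to 8 months old and had eaten control or PIO diet for as long from an age of 3 months. The PIO diet was made at a higher concentration for aged than for young rats. The final dose was about 2.3 mg/kg body weight per day over both ages, and by the study's methods the aged rats took in less per body weight than the young. The rats had trained in a water maze, and each sample was the dorsal and ventral ends of both hippocampi of 1 animal, taken while slices of the middle were cut for recording, so that 1 rat gave 1 Affymetrix RAE230 2.0 array. The question was which transcripts differed after PIO at this age. A gene was represented by its probe set with the highest mean signal over all arrays, and control probe sets and the dimmest 25% were left out, which left 11632 genes.

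PIO is a thiazolidinedione, an antidiabetic drug that binds and activates the nuclear receptor PPARγ (Pparg). The receptor works as a pair with a retinoid X receptor (RXR) on DNA elements near genes of fatty acid uptake, storage and oxidation, and it can also dampen inflammatory transcription. In the aging hippocampus, microglial and antigen presentation transcripts, insulin signaling and calcium regulation in pyramidal neurons are processes that such a drug could reach.

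The tissue label was checked against markers first. Genes of the principal hippocampal neurons were bright in all 13 aged rats. Neurod6, a transcription factor of pyramidal cells, had signals from 3744 to 4424, and Prox1, the transcription factor of dentate granule cells, from 1519 to 1937. Each aged array also had a median signal between 181 and 194, and its median correlation with all other arrays was 0.986 to 0.989. The array labelled aged PIO 1 went against its age label. When genes that differed with age were picked on the other 28 arrays, it was on the aged side of the midpoint for 13% of 161 such genes, against 54.3% to 94.9% for the other 12 aged arrays. In the young groups the array labelled young PIO 1 was on the aged side for 92% of 176 genes. Young control 6 was on that side for 57.5% of 127 genes and had a median correlation of 0.974. The remaining young arrays were on that side for 4.76% to 32.4%. Values are given below without aged PIO 1 where it bears on them.

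No gene passed the threshold after correction. In the limma fit over all 29 arrays, 0 of 11632 genes differed between aged PIO and aged control at an adjusted p under 0.05, and the lowest adjusted p was 0.648, that of B3gntl1, with 1.00 for every other gene tested. An unadjusted p up to 0.05 was reached by 192 genes (1.65% of all tested), fewer than the 582 that chance alone would give, with 96 higher (0.825%) and 96 lower (0.825%) in PIO rats. Log2 fold changes were small in both directions. The median over all genes was 0.00, 50.4% of values were positive, and the middle 90% ran from -0.13 to 0.14. The 95% confidence interval of the log2 fold change lay within -0.5 to 0.5, a 1.41-fold change either way, for 10738 genes (92.3%), and within -1 to 1 for 11523 (99.1%). Without aged PIO 1, 0 genes passed the adjusted threshold and 224 had an unadjusted p up to 0.05. Without aged PIO 2 the latter count was 314, the highest of any omission, again with 0 genes past the adjusted threshold in limma.

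**Figure D1:**
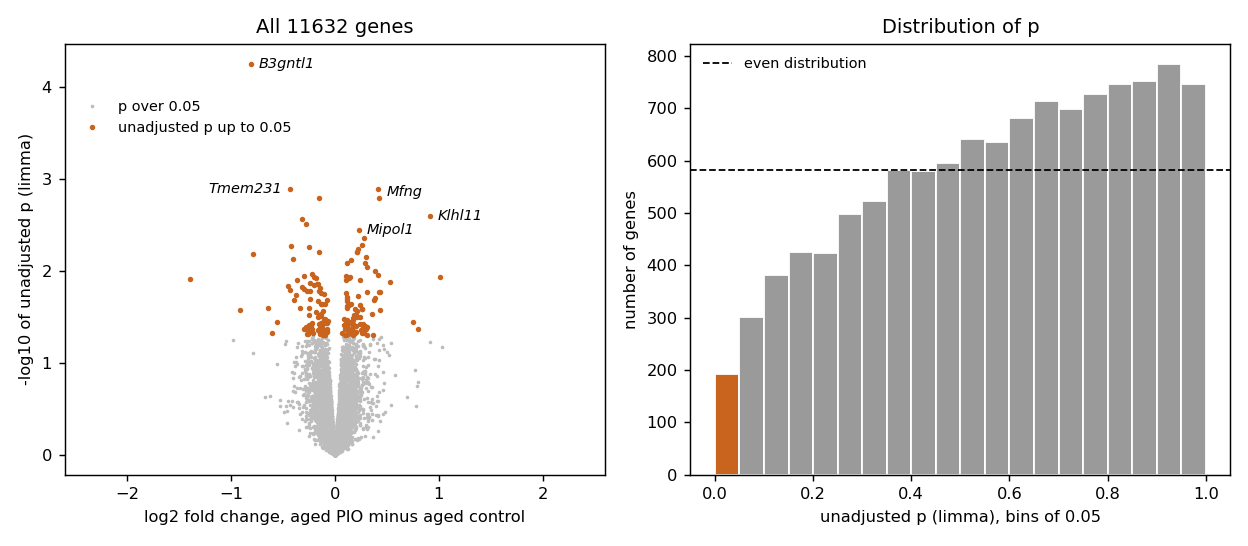
The left panel plots each gene tested by its log2 fold change (aged PIO minus aged control, x) and the -log10 of its unadjusted limma p (y), with the 192 genes at p up to 0.05 in orange. The right panel counts genes in bins of 0.05 of p. The lowest bin holds 192 genes, under the dashed line of an even distribution, and the 2 highest hold 784 and 746.

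Arrays of the 2 aged groups did not overlap for 2 genes (0.0172% of those tested), 1 higher (0.0086%) and 1 lower (0.0086%) with PIO. B3gntl1, which is named for its likeness to N-acetylglucosaminyltransferases, was the lowest by p and was lower in PIO rats. Its signal was 48.0, 53.0 and 82.0 (lowest, median and highest) in aged controls and 23.8, 33.3 and 42.3 in aged PIO rats. The log2 fold change was -0.81 ± 0.17 (SE, n = 6 and 7), with an unadjusted limma p of 5.57e-05 and an adjusted p of 0.648. The gene is dim, with every PIO value under the mean signal of 44.4 that marked the limit for dim probe sets. The other gene was Mipol1, which encodes a coiled-coil protein. Its signal ran from 112 to 132 (median 125) in aged controls and from 136 to 157 (median 142) in aged PIO rats. The difference came to 0.23 ± 0.07 on the log2 scale.

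Among genes with a mean signal of at least 100 in aged rats, the 10 with the smallest p in the direction of higher values with PIO had log2 fold changes between 0.11 and 0.42, Mipol1 among them. Mfng, manic fringe, a glycosyltransferase that modifies Notch receptors, had the smallest p. Its signals were 81.2 to 126 (median 102) in controls and 119 to 158.5 (median 142) in PIO rats, and the log2 fold change was 0.42 ± 0.12. Only the lowest PIO rat lay inside the control range. Nup43, a subunit of the nuclear pore, had 127 to 182 (median 160) in controls and 168 to 260 (median 190) in PIO rats. Its log2 fold change was 0.29 ± 0.09, and the highest value was that of aged PIO 1. Without that array the log2 fold change was 0.20. Lrfn2, a synaptic adhesion protein that binds NMDA receptors and PSD-95, was also highest in aged PIO 1, at 366. Its other PIO values ran from 224 to 282, its control values from 199 to 279.5 (median 225.5), and its log2 fold change of 0.27 ± 0.09 was 0.19 without that array. Pex6, an ATPase needed to import enzymes into peroxisomes, had a median signal of 211 in controls and 252 in PIO rats (log2 fold change 0.22 ± 0.07), and the highest control, 261, lay within the PIO range of 234 to 284. Acot4, an acyl-CoA thioesterase of peroxisomes, had a median of 97.9 against 110 (0.29 ± 0.10). The rest of these 10 were Kbtbd3 (0.22, other probe set 0.02), Phaf1 (0.21), the RNA methylation reader Ythdf1 (0.16, other probe set 0.02) and Wdfy1 (0.11), which binds endosomal lipids.

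The 10 genes with the smallest p in the direction of lower values with PIO had log2 fold changes between -0.15 and -0.43. Tmem231, a membrane protein of the transition zone at the base of cilia, had 216 to 287 (median 237) in controls and 143 to 223 (median 185) in PIO rats. Its log2 fold change was -0.43 ± 0.12, and the highest PIO value and the lowest control value were the only ones to overlap. Mrto4, a ribosome assembly factor, had a narrow spread, with a median of 313.5 in controls and 287 in PIO rats (-0.15 ± 0.04). Prr5, a subunit of the mTORC2 kinase complex, which acts on Akt downstream of insulin, had 131 to 167 (median 150) in controls and 104.5 to 146 (median 118) in PIO rats (-0.32 ± 0.10). All but the highest PIO value of Prr5 were below every control. Rcc1l, needed for mitochondrial ribosomes, had a median of 264 against 225 (-0.28 ± 0.09). Cdh23, a cadherin found at the tips of stereocilia in hair cells, had 172 to 224 in controls and 95.3 to 187 in PIO rats (-0.42 ± 0.14). Its lowest value was that of aged PIO 1, without which the log2 fold change was -0.31. Rad50, a subunit of the MRN complex of DNA break repair, had a median of 320 against 222 (-0.41 ± 0.14), while its other, dimmer probe set gave 0.08. The others were Plcb3, a phospholipase C activated by G proteins (-0.29), the RNA-binding protein Rbm38 (-0.25), Ccdc30 (-0.22) and the protocadherin Pcdhb19 (-0.15). All 20 genes named by p in these 2 directions had an unadjusted limma p up to 0.05 without aged PIO 1, where the highest p was 0.0318, and in each fit that left out 1 aged array. The 20 genes were picked by p on these same arrays, so those fits are no independent check of them. Of all 192 genes, 43 kept to that limit in each fit that left out 1 aged array. The adjusted p was over 0.05 for each of them in every such fit.

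**Figure D2:**
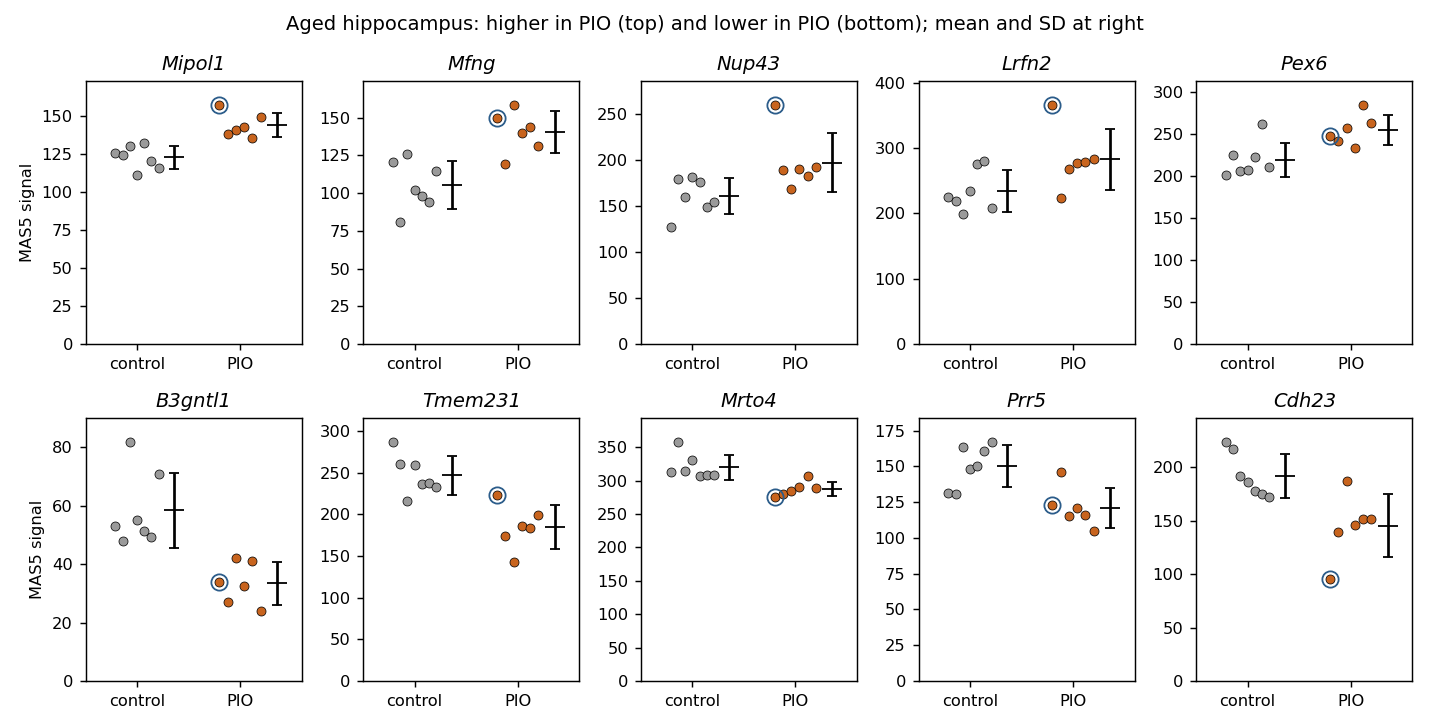
Signals (y, MAS5 units from 0) of 10 of the leading genes in each aged rat, by diet, with the group mean and SD at the right of the points and aged PIO 1 ringed in blue. Mipol1 (top left) and B3gntl1 (bottom left) are the genes whose groups do not overlap, and the ringed value is the highest PIO point in Mipol1, Nup43 and Lrfn2 and the lowest in Cdh23 and Mrto4.

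Genes with the largest log2 fold changes in the positive direction varied widely between rats. Among those with a mean signal of at least 100, Phldb3, which has a lipid-binding domain, was the highest at 0.79 ± 0.57, but its control values ran from 12.3 to 187 and its PIO values from 81.0 to 203. RT1-Bb (0.54 ± 0.50), RT1-Da (0.44 ± 0.54) and Plac8 (0.48 ± 0.49) were carried by aged PIO 2, as described with the immune genes. Nfkbia, the inhibitor of NF-κB, had 248 to 403 (median 307) in controls and 295 to 744 (median 425) in PIO rats, with the highest value in aged PIO 8. Its log2 fold change was 0.44 ± 0.22, and it ranged from 0.28 to 0.55 when single arrays were left out. At the low end, Lrrfip2, a regulator of Wnt and Toll-like receptor signaling, had 261 to 492.8 (median 423) in controls and 257 to 395 (median 269) in PIO rats. Its log2 fold change was -0.45 ± 0.17, and only aged PIO 2 was above 300 among PIO rats. Its dimmer second probe set gave 0.16, the other direction. Lmbr1l, a membrane receptor studied in lymphocytes, had -0.44 ± 0.17.

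The targets of the drug were followed next. Pparg itself was dim. Its mean signal over all arrays was 30.4, at the 19.5th percentile of probe sets and so under the limit for testing. It was 30.5 ± 10.4 (SD, n = 7) in aged controls and 33.7 ± 9.80 (SD, n = 6) in aged PIO rats. The log2 difference was 0.19, with an exact permutation p of 0.587 (two-sided, over all splits of the 13 arrays, the smallest possible p being 0.00117). Ppara, the receptor that acts on fatty acid oxidation, was dimmer still at 13.5. Ppard, the third receptor of the family, had 266 ± 28.4 in controls and 264 ± 25.1 in PIO rats, a log2 difference of -0.01. The RXR partners Rxrb and Rxrg differed by 0.01 and 0.07 and the dimmer Rxra by 0.18, with exact permutation p values of 0.824, 0.631 and 0.328. Rxrg had 1 high value, 535 in aged PIO 1, and its log2 difference was 0.00 without it. Ppargc1a, the coactivator of mitochondrial biogenesis, had 957 ± 74.0 in controls and 1001 ± 56.6 in PIO rats, a log2 difference of 0.07 (exact permutation p = 0.248). Of 28 single genes tested by exact permutation, the lowest adjusted p was 0.71. Of the 12 receptors and cofactors that passed the filter, 6 were positive and 0 had an unadjusted limma p up to 0.05.

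Of 44 genes known as PPAR targets in other tissues, 40 were on the array and 32 passed the filter. None of the 32 passed the adjusted or the unadjusted threshold. Their median log2 fold change was 0.01 and 22 were positive (68.8%, against 50.4% of all genes), and for 29 the 95% interval lay within -0.5 to 0.5. The highest was Ucp3, a mitochondrial uncoupling protein of muscle. Its signal was 29.8 to 109 (median 65.3) in controls and 63.6 to 113 (median 91.3) in PIO rats, so that PIO rats covered the upper part of the control range and 2 lay just above it. The log2 fold change was 0.48 ± 0.25, while a second, dimmer probe set of Ucp3 gave -0.07. Acot1, an acyl-CoA thioesterase, had 0.21 ± 0.13, Lpl, the lipase that frees fatty acids from lipoproteins, 0.10 ± 0.07, and Angptl4, an inhibitor of that lipase, 0.10. Pdk4, the kinase that shuts off pyruvate oxidation, had 0.15 and its highest signal, 412, in aged PIO 8. Genes of lipid droplets and fat oxidation lay near 0, among them Plin2 (-0.08), Pnpla2 (-0.07), Acadm (-0.05), Cpt1a (0.01) and Acsl1 (0.03). The lipid sensor Nr1h3 was the lowest at -0.13.

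PPARs and RXR bind repeats of a short half-site, AGGTCA, with 1 base between the copies (AGGTCANAGGTCA). Both motifs were searched on both strands in RefSeq promoters of rat genes (GRCr8, 250 bases before to 50 after the start), where 33 of the targets had 38 promoters. The full repeat, which contains the half-site, was in 0 of the 38 and in 0.0538% of all 33469 promoters. The half-site was in 7 of the 38 (18.4%) and in 16.2% of all. The stretches below show it in the targets whose genes were tested, with the half-site, or its reverse complement, in capitals. They are shown because these are the drug's presumed targets, and a match is a description of letters only.

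Ucp3 (chr1:164227743-164227772, + strand): ttacagagccccAGGTCAcggaagctaaac
Ucp3 (chr1:164227848-164227877, + strand): gaattaggtttcAGGTCAgctggtgcataa
Cat (chr3:110329678-110329707, - strand): tgtgactctcagAGGTCAgagagcaccgcc
Acadvl (chr10:55236857-55236886, - strand): atggatcaccctAGGTCAagtagaatacag
Acadvl (chr10:55236705-55236734, - strand): agacgggagaagAGGTCAgtggtcaaggct
Hadhb (chr6:31907451-31907470, - strand): tcagtctggactTGACCTtc
Slc27a1 (chr16:18312717-18312742, + strand): gtcctcatTGACCTctggctgtccgg

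Beside Ucp3, the genes of these stretches had log2 fold changes near 0. Cat, the catalase of peroxisomes, had -0.03 ± 0.04, Acadvl, which begins the oxidation of long-chain fatty acids, -0.02 ± 0.05, Hadhb, of the same pathway, 0.02 ± 0.05, and the fatty acid transporter Slc27a1 0.01 ± 0.04.

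Insulin signaling was measured through 34 genes. None passed either threshold, 21 were positive, and the median log2 fold change was 0.01, between 0.00 and 0.02 when single arrays were left out. The receptor genes stood at 0. Insr had 189 ± 18.1 in aged controls and 192 ± 20.6 in aged PIO rats (log2 fold change 0.02, 95% interval -0.14 to 0.18), and Igf1r 877 ± 85.3 and 880 ± 96.8 (0.00, -0.15 to 0.16). Irs2, the docking protein under the receptors, had 0.01 (-0.09 to 0.12), and Irs1 was under the limit for dim probe sets. Of the glucose transporters, Slc2a3, the neuronal one, had 1241 to 1474 (median 1406) in controls and 1362 to 1728 (median 1425) in PIO rats, with a log2 fold change of 0.10 ± 0.06. It was 0.05 without aged PIO 1, the only PIO rat far above the controls. Slc2a1, of vessels and glia, had -0.07 ± 0.11, and its lowest signal among the aged rats, 1014, was that of aged PIO 1. Slc2a4, the insulin-regulated transporter, was dim, with a log2 difference of -0.20 and an exact permutation p of 0.579. Tsc2, a brake on mTOR, was the lowest of the list at -0.10 ± 0.06, and Igfbp6 and Igfbp4, which bind insulin-like growth factors, were the highest at 0.13.

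Genes of calcium handling and of the afterhyperpolarization, the calcium-activated potassium current that slows firing of pyramidal cells, showed the same absence of calls. Of 36 genes 0 had an unadjusted limma p up to 0.05, the median was 0.00, and 35 had an interval within -0.5 to 0.5. The L-type channel subunits Cacna1c and Cacna1d had 570 ± 34.3 against 563 ± 52.9 and 471 ± 76.5 against 444 ± 40.2 (control and PIO, SD), log2 differences of -0.02 and -0.07 with exact permutation p values of 0.778 and 0.503. Fkbp1b, which stabilizes ryanodine receptors, had 609 ± 95.1 and 643 ± 62.3 (0.09, exact permutation p = 0.448). The ryanodine receptors Ryr2 and Ryr3 had -0.01 and -0.07. Cacnb4, an auxiliary channel subunit, was the highest at 0.19 ± 0.12, and the R-type channel Cacna1e, which is dim, the lowest at -0.23 ± 0.23, or -0.43 without aged PIO 1. Of 32 genes of glutamate receptors and plasticity, 2 had an unadjusted limma p up to 0.05 and both were higher, against 0.825% of all genes. They were Lrfn2, described above, and Gria1, an AMPA receptor subunit. Gria1 had 1441 to 1943 (median 1612) in controls and 1500 to 2004 (median 1768) in PIO rats. Its log2 fold change was 0.13 ± 0.06, or 0.18 without aged PIO 1, and the groups overlapped over most of their range. The NMDA receptor subunits Grin1, Grin2a and Grin2b lay between -0.05 and 0.02, and Camk2a, the main kinase of the postsynaptic density, had -0.11 ± 0.07.

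Immediate early genes, which neurons switch on within minutes of activity, were mostly higher in PIO rats, without a call. Of 23 measured, 21 were positive (91.3%, against 50.4% of all genes), with a median log2 fold change of 0.10, and 0 had an unadjusted limma p up to 0.05. The median ranged from 0.07 to 0.14 when single arrays were left out. The groups overlapped, since the mean log2 level of the list ran from 8.29 to 8.79 in controls and from 8.35 to 8.89 in PIO rats. Klf2 was the highest at 0.36, and Junb, a member of the AP-1 factor, had 210 to 280 (median 232) in controls and 210 to 344 (median 282) in PIO rats (0.24 ± 0.13). Fos, the best known of them, had 0.14, Arc 0.07 and Egr1 0.02. Only Fosb (-0.10) and Egr2 (-0.01) were negative. Glucocorticoid-responsive genes had 9 of 15 positive and a median of 0.04. Sgk1, a kinase induced by the hormone, had 2259 to 4790 (median 2625) in controls and 2217 to 5504 (median 3538) in PIO rats (0.30 ± 0.21), and Ddit4, an inhibitor of mTOR induced by stress, 0.23 ± 0.16, with the highest value of both in aged PIO 8. The receptor Nr3c1 and Hsd11b1, which regenerates the active hormone, each had -0.03, with exact permutation p values of 0.696 and 0.558.

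The MHC class II list was the one in which PIO rats differed most among themselves. The SD of its mean log2 level was 0.79 in PIO rats and 0.27 in controls, against 0.24 and 0.10 for microglial genes. Microglia are the resident macrophages of the brain, and MHC class II molecules, which present antigen to T helper cells, appear on some of them with age. Positive values were found in 22 of 28 microglial genes (78.6%), where the median was 0.07 on the log2 scale. Of 11 complement genes 7 were positive (median 0.09), and of 8 MHC class II genes 7 (median 0.31). C1qa, C1qb and C1qc are in both of the first lists. None of these genes had an unadjusted limma p up to 0.05. Those medians rested on aged PIO 2. Without that rat they were -0.01, -0.04 and -0.03, and without aged PIO 1, the lowest rat for MHC class II, they were 0.09, 0.17 and 0.60. In bulk tissue, more cells of a type and more RNA per cell cannot be told apart.

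The class II genes show the spread directly. RT1-Da, a chain of the class II molecule, had 205 to 516 (median 387) in controls, and in PIO rats 2353 in aged PIO 2, 659 in aged PIO 4, 214 in aged PIO 1 and between 243 and 371 in the other 3. Cd74, the invariant chain that guides class II molecules, had 298 to 671 in controls, 2443 and 851 in aged PIO 2 and aged PIO 4, and 242 to 510 in the remaining PIO rats. RT1-Bb and RT1-Ba had 774 and 622 in aged PIO 2, against at most 193 and 220 in any control. Aged PIO 2 was thus the highest of the 13 aged rats for 6 of the 8 genes, and aged PIO 1 the lowest for 3. The pair RT1-DMa and RT1-DMb, which load peptide, and the class II transactivator Ciita had log2 fold changes between 0.00 and 0.07. RT1 genes form a polymorphic family whose probe sets may read more than 1 gene, and the other probe sets of RT1-Ba gave -0.24 and 0.05 against 0.30 for the one used. C1qa and C1qb, chains of the complement component that tags synapses, had 0.15 ± 0.12 and 0.16 ± 0.11, with 4112 and 1369 in aged PIO 2 as their highest signals. Aif1 (Iba1), a microglial marker, had 457 to 579 (median 511) in controls and 410 to 725 (median 602) in PIO rats. Its log2 fold change was 0.15 ± 0.11, and 0.25 without aged PIO 1.

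**Figure D3:**
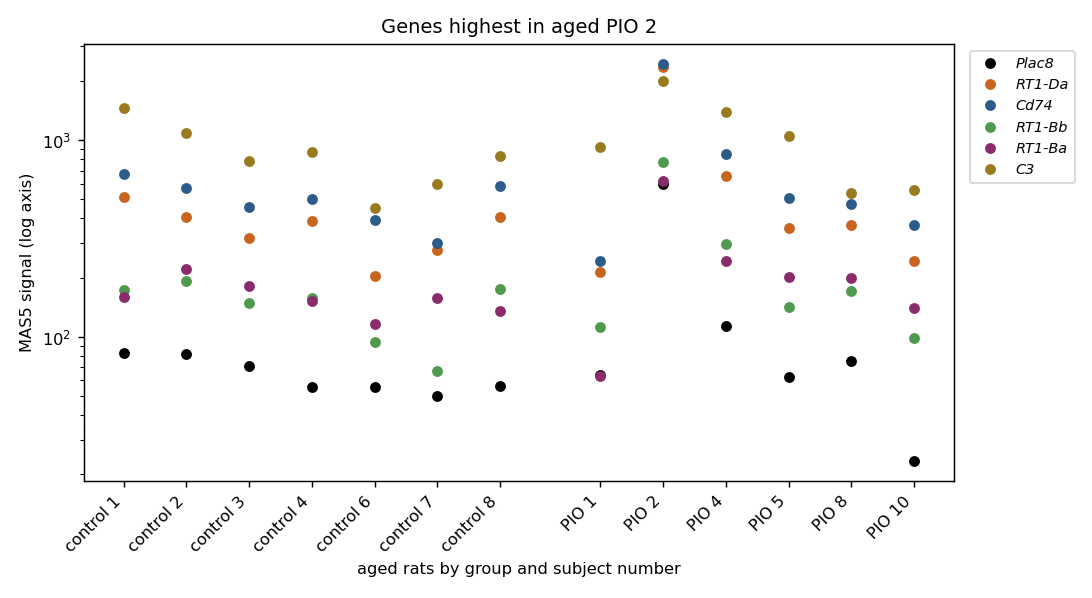
Signals (y, log axis) of 6 genes in each aged rat (x, by diet and subject number): Plac8, a protein of immune cells, 4 genes of the MHC class II list and complement C3. Every one is highest in aged PIO 2, and Plac8 was 596 there against at most 113 in any other aged rat.

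Markers of lymphocytes and blood were set beside these values. Of 22 lymphocyte markers 20 were on the array and 7 passed the filter, and defining markers such as Cd3d, Cd8a, Cd79b and Ms4a1 were under the limit for dim probe sets. The summed signal of the 7 ran from 720 to 949 in controls and from 743 to 1099 in PIO rats. In aged PIO 2 all 7 were above the median of the other rats, by a median of 0.16 on the log2 scale. The 3 blood genes that passed the filter, Hbb, Alas2 and Slc4a1, were all above that median too, with a mean log2 level of 8.92 against at most 8.81 in controls. Their summed signal ran from 2496 to 5715 in controls and from 2375 to 5719 in PIO rats. The part of blood or lymphocytes in the class II values was not tested.

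The listed interferon-responsive genes, which are induced in viral defence, were mostly lower in PIO rats. Of 21 genes, 5 were positive (23.8%), the median was -0.06, and 0 had an unadjusted limma p up to 0.05. The median stayed negative, between -0.10 and -0.03, when single arrays were left out. The groups overlapped, with a mean log2 level of the list from 7.29 to 7.70 in controls and from 7.24 to 7.65 in PIO rats. Aged PIO 1 (7.24) and aged PIO 5 (7.28) were the lowest of the aged rats. Ifih1, a sensor of viral RNA, was the lowest at -0.28 ± 0.26 because of a signal of 9.47 in aged PIO 1, and it was 0.09 without that array. MHC class I genes had 4 of 13 positive and a median of -0.01. Of 26 genes of inflammatory signaling, 12 were positive, the median was -0.01, and 0 had an unadjusted limma p up to 0.05. The highest was Icam1, an adhesion molecule for leukocytes, at 1.03 ± 0.54. It is dim, with a control signal as low as 10.0 and a log2 fold change between 0.66 and 1.29 when single arrays were left out. The cytokine Il16 had 398 ± 25.5 in controls and 368 ± 24.7 in PIO rats, a log2 difference of -0.11. Its exact permutation p of 0.0589 was the lowest of the genes tested this way. Il18, Il33 and Tlr4 had -0.04, -0.02 and 0.13, with exact permutation p values of 0.636, 0.726 and 0.436. F3, tissue factor, had -0.10 (0.131), and Zfp36, which destabilizes cytokine mRNA, 0.20 (0.152). The lowest F3 signal among the aged rats, 597, was that of aged PIO 1. Serpina3n and Mug1, protease inhibitors, were too dim for the fit across genes, with exact permutation p values of 0.0763 and 0.0985.

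Other cell types had at most 1 member per list at an unadjusted limma p up to 0.05. In the lists with such a member (interneurons, endothelium and cell cycle), 1 member is a larger share than the 1.65% of all genes. That holds for 1 member of any list this short, so no excess is read from it. Astrocyte genes had 3 of 18 positive (16.7%) and a median of -0.03. Gfap, the intermediate filament of astrocytes, had 7802 to 9829 (median 9052) in controls and 6686 to 9537 (median 8738) in PIO rats, a log2 fold change of -0.06 ± 0.07, and without aged PIO 1 the median of the list was 0.00. Interneuron genes had 13 of 14 positive (92.9%) with a median of 0.07, between 0.04 and 0.10 when single arrays were left out. The groups overlapped, with a mean log2 level of the list from 9.19 to 9.50 in controls and from 9.30 to 9.61 in PIO rats. Only aged PIO 1 (9.59) and aged PIO 10 (9.61) were above every control, and the median was 0.04 without aged PIO 1. One of them, Erbb4, the neuregulin receptor of interneurons, had an unadjusted limma p up to 0.05 (log2 fold change 0.37 ± 0.18). It is dim, with 48.9 to 107 in controls and 64.1 to 123 in PIO rats, and its log2 fold change was 0.28 without aged PIO 1, where it did not meet that limit. The GABA-synthesizing enzyme Gad2 had 0.18 ± 0.13 and its partner Gad1 0.03 ± 0.05. The neuropeptides Sst and Npy had 0.13 ± 0.07 and 0.10 ± 0.05.

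Myelin genes had 11 of 22 positive and a median of 0.00, with Mbp at -0.01 and Mobp at -0.06. Nkx6-2, a transcription factor of oligodendrocytes, was the highest at 0.37 ± 0.18. The 20 endothelial genes had a median of -0.01, and Edn1, the vasoconstrictor endothelin, was their only member at an unadjusted limma p up to 0.05. Edn1 had 86.6 to 120 (median 97.1) in controls and 58.2 to 109 (median 71.1) in PIO rats, a log2 fold change of -0.39 ± 0.16, and it was -0.44 without aged PIO 1. Among genes of neurogenesis and the cell cycle, which had 12 of 17 positive, Foxm1, a driver of mitosis, was the 1 member at an unadjusted limma p up to 0.05, with 0.44 ± 0.19 at signals of 35.8 to 86.0. Dentate gyrus markers had 1 of 8 positive and a median of -0.07, which was 0.00 without aged PIO 1.

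Tissue next to the hippocampus was checked in the same way. Choroid plexus genes had a median of 0.08 and -0.03 without aged PIO 10, the rat with a Ttr signal of 1995 against at most 364 in any other. Meningeal, striatal and thalamic lists had medians of 0.00, 0.00 and 0.03. The list of cortex and subiculum had 6 of 10 positive and a median of 0.08, between 0.03 and 0.11 when single arrays were left out, with 0 members at an unadjusted limma p up to 0.05. Of 10 thalamic genes, 1 had an unadjusted limma p up to 0.05, against 1.65% of all genes, a share that 1 member of so short a list always exceeds. It was Slc17a6, the vesicular glutamate transporter of thalamic neurons, with a log2 fold change of 0.24 ± 0.11. Without aged PIO 1 the log2 fold change was 0.17 and that limit was not met.

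**Figure D4:**
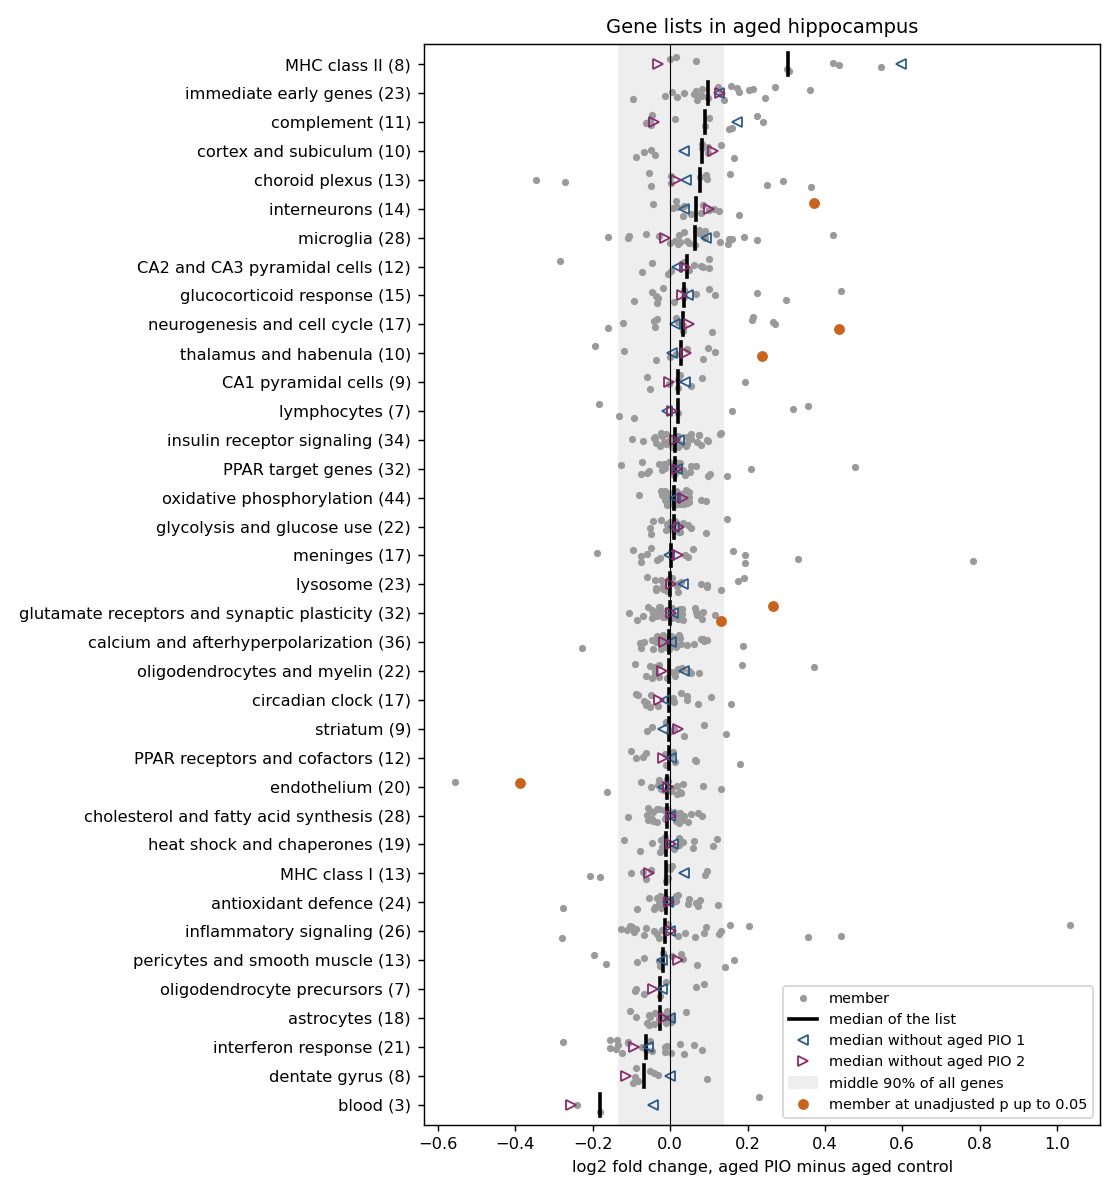
Log2 fold changes (x, aged PIO minus aged control) of the tested members of 37 gene lists (y, with the number of members), as grey points, in orange where the unadjusted limma p was up to 0.05. Black bars are medians, triangles are medians without aged PIO 1 or aged PIO 2, and the grey band is the middle 90% of single genes, which is no range for a median. The MHC class II median is 0.31 with all rats and -0.03 without aged PIO 2, and the members of the immediate early gene list lie to the right of 0 in 21 of 23 cases.

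Lists of metabolism had narrow intervals. For 44 genes of oxidative phosphorylation the 95% interval lay within -0.5 to 0.5 in all 44, with 33 positive (75%) and a median of 0.01 that was -0.01 without aged PIO 10. Ndufs3, a subunit of complex I, had 1968 to 2384 (median 2232) in controls and 1927 to 2559 (median 2402) in PIO rats (0.09 ± 0.07). Glycolysis genes had 15 of 22 positive and a median of 0.01, with the hexokinase Hk1 at -0.05 ± 0.04. Genes of cholesterol and fatty acid synthesis had 13 of 28 positive and a median of -0.01, and all 28 intervals lay within -0.5 to 0.5, among them that of Acaca, the first enzyme of fatty acid synthesis (-0.04 ± 0.04). Lysosomal, chaperone, antioxidant and circadian lists had medians between -0.01 and 0.00, and 0 of their members had an unadjusted limma p up to 0.05. In the clock list Cry2, a repressor of the clock, had 1184 to 1240 in controls and 1109 to 1255 in PIO rats (-0.07 ± 0.03). All PIO rats but aged PIO 5 were below every control. The dimmer second probe set of Cry2 gave 0.02, the other direction.

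**Figure D5:**
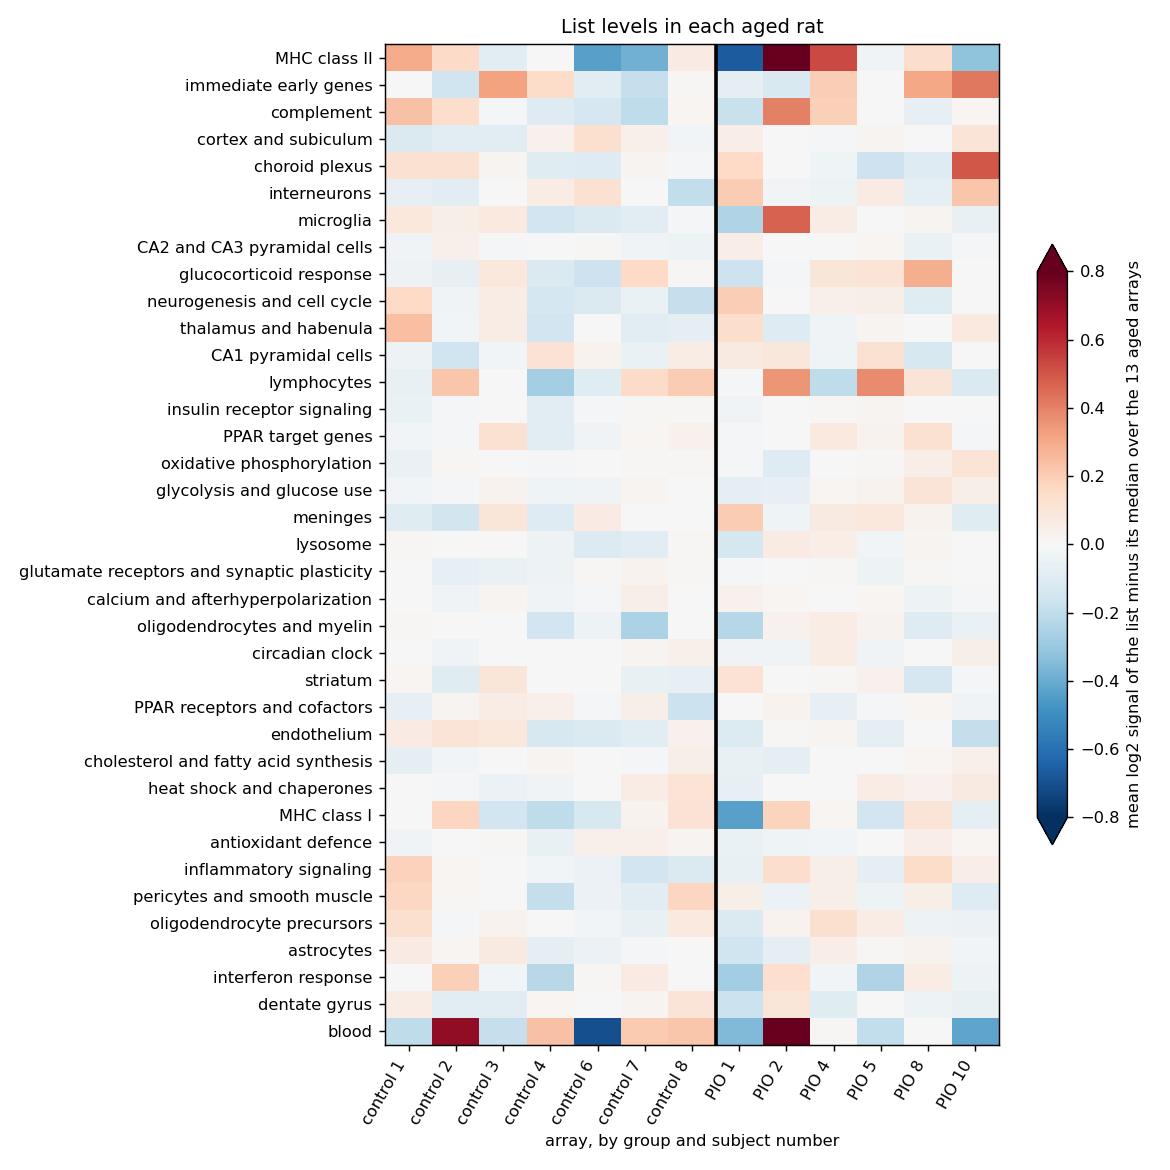
Mean log2 signal of each list in each aged rat (columns), as the difference from the median of that list over the 13 aged arrays, from blue (lower) to red (higher), with the groups separated by a black line. MHC class II is highest in aged PIO 2 and lowest in aged PIO 1, and the choroid plexus list is highest in aged PIO 10.

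Whether the effect of PIO in aged rats differed from that in young rats was tested as the interaction in the same limma fit. At an adjusted p under 0.05 there were 0 genes, the lowest adjusted p was 1.00, and 204 genes (1.75%) had an unadjusted p up to 0.05, 123 of them with a higher (1.06%) and 81 with a lower (0.696%) effect in aged rats. In young rats alone, 300 genes (2.58%) had an unadjusted p up to 0.05 for PIO, 218 of them lower (1.87%) and 82 higher (0.705%). B3gntl1 had the smallest limma p of the interaction, with a log2 fold change of -0.81 in aged and 0.09 in young rats (interaction -0.90 ± 0.23). Fahd1, a mitochondrial enzyme, had -0.17 in aged rats and an interaction of -0.49 ± 0.13. The cochaperone Bag5 and the ribosome factor Rrp12 had -0.31 ± 0.09 and -0.26 ± 0.08. In aged rats Rrp12 had -0.16, with 0.15 and -0.07 from its dimmer probe sets. Genes with the opposite sign were Gbp7, an interferon-induced GTPase (0.41 in aged rats, interaction 0.53 ± 0.16), the histone deacetylase Hdac7 (0.50 ± 0.15), Zfp324 (0.43 ± 0.13) and Elp6, of the Elongator complex (0.24 ± 0.07). Of the 32 PPAR target genes, 3 had an unadjusted limma p up to 0.05 for the interaction, Ucp3 (0.78 ± 0.34), Acot1 (0.39 ± 0.18) and Lpl (0.19 ± 0.09). In each the log2 fold change was above 0 in aged rats and below 0 in young rats. Without both PIO arrays of subject number 1, whose age labels are in doubt, the interactions were 0.66, 0.37 and 0.13, and none met that limit. The inflammatory list had as many in 26 genes, Icam1 (1.88 ± 0.73), Tlr4 (0.42 ± 0.19) and F3 (-0.18 ± 0.09). Without those arrays they were 2.03, 0.49 and -0.12, and Icam1 and Tlr4 still met the limit. The study had already reported Tlr4 and F3 for the interaction on these same arrays. The count in this list is therefore no independent result. All adjusted p values of the interaction were 1.00. Of the 37 lists, meninges and choroid plexus had the highest median interactions, 0.44 and 0.27. Their median log2 fold changes in young rats were -0.35 and -0.22. In both lists 0 members had an unadjusted limma p up to 0.05 for the interaction. The part of these tissues in other interactions was not tested. Since the PIO intake of the 2 ages differed, age and dose cannot be told apart in the interaction.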

How the data were processed

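RNA of 29 rats was hybridised to 1 array each. The authors used Gene Expression Console to compute 1 MAS5 signal intensity per probe set, scaled to a target of 500, and deposited these intensities on a linear scale without a filter. Depth does not apply to arrays, and the number of arrays limits the precision. Presence calls were not used here. Of 31099 probe sets, 20826 had 1 gene symbol in the platform annotation, 99.7% of which were given a current symbol (RefSeq, GRCr8). Signals were taken to log2, and a model with the 4 group means was fitted to the 29 arrays together (limma 3.58.1, R 4.3.3). Benjamini-Hochberg adjustment ran over all genes tested, and the script was tested on simulated data. Single genes were tested by exact permutation (Python 3.11.15), and figures used matplotlib 3.10.9.

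Groups came from the labels, which do not tie rats to the 2 purchase cohorts. The gene lists, 37 in number, and the genes chosen for single tests were set with earlier results of these data known. Named genes were the 10 smallest p values and the 5 largest log2 fold changes in each direction (mean signal at least 100), the 4 smallest interaction p values in each direction, 30 chosen genes, and of each list the 4 smallest p values and, for tissues, the 2 brightest genes. Other list members, and genes of single arrays, were named after their values were seen. The alternatives tried were the scaling, the filter, a pseudocount of 16, every probe set on its own, the methods' pairwise test, other settings of limma, a replicate block and leaving out arrays.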

Additional observations from a re-analysis of the deposited data

Results flagged for a closer look

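Values that stood apart from the rest of their group were looked for among the named genes and the lists, in 490 groups of 6 or 7 aged rats. There were 36, and chance alone gives about 1 in 20 groups. No cause was tested.

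Aged PIO 2 held 8 of them. Plac8 (596, next 113), RT1-Da (2353, next 659), RT1-Bb (774) and RT1-Ba (622) were the highest of the PIO group, as were Il18 (346), Prox1 (1878), Lrrfip2 (395) and the mean log2 level of the blood list (8.92). Aged PIO 8 held 6, the highest signals of Nfkbia (744), Ddit4 (2504), Zfp36 (287) and RT1-T24-4 (193) and the lowest of Cadps2 (952) and Kbtbd3 (210). Aged PIO 1 was highest for Nup43 (260), Rxrg (535) and the pericyte receptor Pdgfrb (164) and lowest for Irf1 (220). Aged PIO 10 was highest for Ttr (1995, next 245) and Gad2 (902) and lowest for Cacna1c (458) and the chaperone Hspa4 (1414). Cry2 was highest in aged PIO 5 (1255) and Rrp12 in aged PIO 4 (318).

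Among aged controls, control 1 was highest for Dsp (360) and F5 (56.3) and lowest for Lamp5 (787) and the mean log2 level of oxidative phosphorylation (11.8). Control 8 was highest for Irs2 (828), Slc2a1 (1693) and Kcnj8 (90.9), and control 4 for Gria3 (4766) and Stard4 (330.0). Control 6 was lowest for Hsd11b1 (1794) and Il33 (839), and control 7 was highest for Pex6 (261).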

How the results depend on the processing

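The count of 0 genes at an adjusted p under 0.05, for PIO in aged rats and for the interaction, was the same in every alternative run, 26 for the former. The 192 genes at an unadjusted p up to 0.05 became 293 without the filter on dim probe sets (14217 genes tested), 425 with every probe set on its own (23281 tested) and 156 to 314 when single aged arrays were left out, the highest without aged PIO 2. Of those 314 genes, 137 were among the 192. The 204 genes of the interaction became 432 with every probe set on its own, 130 in the brighter 50% of probe sets and 183 to 268 when single arrays were left out. The 2 genes without overlap became 4 without the filter, 1 after quantile normalization, 0 in the brighter 50%, 5 without both PIO arrays of subject number 1 and 2 to 13 when single arrays were left out. That count went over 1.5 times for aged controls 2, 3, 6 and 7 and every aged PIO array (5 to 13), where fewer arrays had to be apart. With the subject number as a replicate block, 292 genes had an unadjusted p up to 0.05 (295 for the interaction). The 4 numbers that both aged groups share (1, 2, 4 and 8) were not taken as pairing. The correlations of their deviations were 0.04, 0.24, 0.10 and 0.16. Numbers 2, 4 and 8 each correlated best with their own number, a hint from the data, and number 1, whose PIO array goes against its age label, did not. Over 208 named genes, 115 of 5348 values had another sign, none of them among the 32 genes with an unadjusted p up to 0.05. List medians changed sign in 117 of 814 values, and 2 moved by over 1 SD, CA2 and CA3 pyramidal cells with every probe set on its own (0.08) and meninges under the block (0.20).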

Other observations

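Single aged rats were described by the genes (mean signal at least 100, 10270 genes) that lay more than 1 on the log2 scale from the median of the other 12 aged rats. These genes were chosen after their values were seen, and no test was run. Such genes were few in every rat, from 0.010% in aged PIO 4 to 0.156% in aged PIO 1. Aged PIO 2 had 8 above and 3 below. Beside Plac8 and the MHC class II genes, those above included complement C3 (2007, median of the others 852), Ifi27l2b (222 and 96.9) and Ly86, a partner of a Toll-like receptor on myeloid cells (268 and 130). Fos was 161 there against 332, and it was lower still in aged control 7, at 133. Aged PIO 8 was above the others for Pdk4 (412 and 167), Nfkbia (744 and 315) and the vascular factor Klf2 (608 and 287), and Sgk1 (5504 and 2788) fell just short. Aged PIO 10 was above for Ttr (1995 and 206) and Klf2 (690 and 287), and its Fos, 537 against 289, fell just short. Klf2 was also more than 1 above in aged control 3 (595 and 287) and fell just short in aged PIO 4 (565). Aged PIO 1 and aged control 3 shared a pattern in a pair of genes. The hemoglobin gene Hba-a3 was 242 and 290 against a median of 73.0, and the peptidase Prcp was 23.6 and 45.6 against a median of 160. Hba-a3 was also high in aged control 8, at 186. The brighter hemoglobin gene Hbb was 2238 in aged PIO 1, the lowest of the 13 rats.

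The spread within groups was alike, with a median SD over genes of 0.13 (log2) in aged controls and in aged PIO rats and 0.13 and 0.12 in young controls and young PIO rats. The p values of the aged comparison went from 192 genes in the lowest bin of 0.05 to over 740 in each of the 4 highest. What draws them to high values was not tested.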
